A study of Triticum aestivum with 24 samples.

Results

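Wheat plants grown in elevated CO2 (700 ppm) without any other treatment were compared with untreated control plants, through the messenger RNA of their leaves. Of the 24 libraries in the series, 3 belong to the CO2 group and 3 to the control group, picked by the treatment named in their labels. All plants were Triticum aestivum of the winter cultivar Alana, and leaves 3 and 4 of the main shoot were taken at growth stage 61. The series crossed CO2 with heating that reached 31 °C and with drought, in which soil water was held at 25 ± 5%. This gave 8 groups of 3 libraries, labelled as biological replicates. The other groups used below are CO2+temperature, CO2+drought, CO2+temperature+drought, temperature alone, drought alone and temperature+drought. The CO2 level, temperature and watering of the control plants are not stated in the labels. Nor do the labels say whether replicates shared a growth chamber, so p-values measure the spread between these libraries, which may be partly technical.

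Wheat fixes carbon with Rubisco, an enzyme that also reacts with oxygen. More CO2 in the air favours the carbon reaction over the oxygen reaction, which starts photorespiration. Leaves in elevated CO2 are generally known to gain sugars and starch, to narrow their stomata and to hold less nitrogen per unit of dry matter. With longer growth in elevated CO2, transcripts of photosynthetic genes are often lowered in cereals, a response called acclimation. Bread wheat holds 3 related subgenomes, named A, B and D, each with chromosomes numbered 1 to 7, so that many genes exist as near-identical copies on all 3.

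The deposited values were FPKM, that is, fragments scaled for transcript length and for how many fragments were mapped, for 105200 gene identifiers. The files give identifiers without gene names, and 0 of them matched the reference gene table, so genes are described by identifier, chromosome and level, and no role is given to any of them. The leaf label could likewise not be checked against marker genes. The tests covered the 45359 genes that reached 1 FPKM in 3 or more of the 24 libraries. Changes are CO2 minus control on the log2(FPKM + 1) scale, which understates the change of low genes. A gene was called where limma, fitted to all 24 libraries, gave a Benjamini-Hochberg adjusted p under 0.05.

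Replicates lay close together in both groups. The correlation between libraries across genes was 0.991 to 0.993 in CO2 and 0.986 to 0.99 in control, and genes are not independent replicates. The root mean square SD of a gene was 0.141 in CO2 and 0.164 in control on the log2 scale (n = 3 each). In both groups 1 library lay between the other 2 more often than either of those did. CO2 replicate 3 lay between replicates 1 and 2 in 88 of the 102 genes (86.3%) for which those replicates differed at least 2-fold and whose mean reached 5 FPKM. In control, replicate 2 lay between the others in 142 of 186 such genes (76.3%). In the other 6 groups 1 library was between the others in 90.5% to 98.7% of such genes. Replicate 3 lay close to midway for TraesCS6A02G374400 in CO2+temperature (219, 124 and 171 FPKM in replicates 1 to 3). It did so too for TraesCS6D02G026600 in CO2+drought (93.1, 22 and 57.8 FPKM). Whether such a library came from its own plants was not tested. All 24 libraries entered the fit as separate replicates, so adjusted p-values would be too small if some were not independent. Without CO2 replicate 3 the comparison called 12877 genes (7436 higher and 5441 lower in CO2), and without control replicate 2 it called 13734.

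Of the 45359 tested genes, 16011 (35.3%) differed between the CO2 and control libraries, 9004 higher (19.9%) and 7007 lower (15.4%) in CO2. Most changes were small. Rises of at least 0.5 numbered 5423 and falls of that size 3660. A change of at least 1, which is close to 2-fold for genes well above 1 FPKM, was a rise in 1171 genes (2.58%) and a fall in 1187 (2.62%). Among larger changes falls were the more frequent, with 121 rises and 187 falls of at least 2. The most extreme class, a change of at least 4, held 5 rises and 8 falls. The falls include genes that were high in the control libraries alone, described below. Without those 76 genes, falls of at least 1 numbered 1111, against 1171 rises. How many of the 76 fell by at least 2 was not counted, so the excess of larger falls may rest on them. Of the genes that rose by at least 1, 1170 of 1171 had all 3 CO2 libraries above all 3 control libraries. Of those that fell by at least 1, 1184 of 1187 had them all below. The same libraries chose these genes by size and adjusted p, so the lack of overlap follows largely from that choice. Over all tested genes, called or not, the libraries of the 2 groups did not overlap in 13751 genes with CO2 above (30.3%) and 12024 with CO2 below (26.5%).

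**Figure D1:**
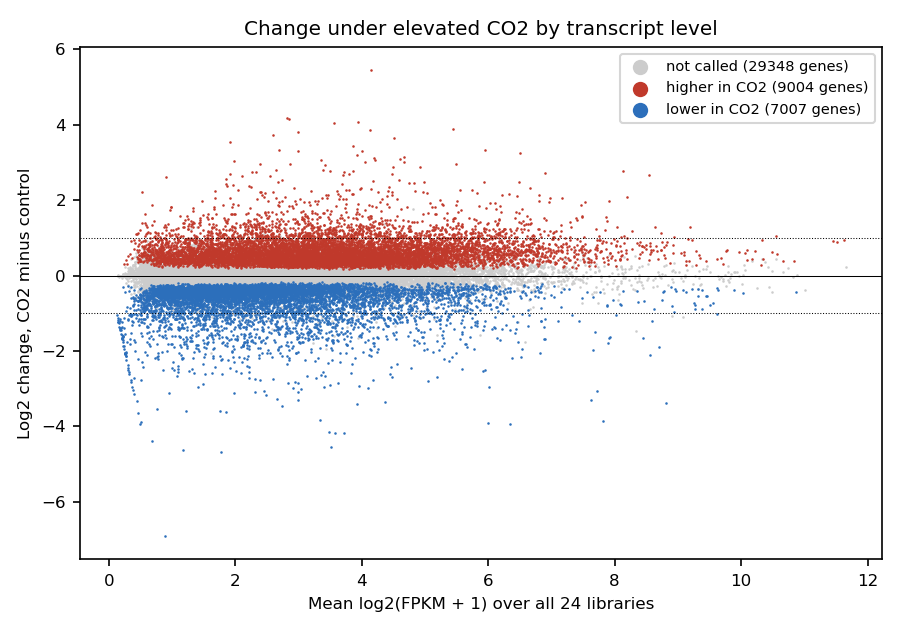
Each point is 1 of the 45359 tested genes, with its mean log2(FPKM + 1) over all 24 libraries on the x axis and its log2 change, CO2 minus control, on the y axis; dotted lines mark a change of 1. Rises (9004 genes, red) and falls (7007 genes, blue) cover the whole range of levels, and the falls of low genes on the left edge follow a slanted line, where a gene is near 0 FPKM outside the control libraries.

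The direction of change differed with transcript level. Tested genes were split into 4 level classes of equal size by their mean log2(FPKM + 1) over all 24 libraries. In the highest class, with means above 3.53, 36.8% of genes rose and 13.3% fell. In the lowest class, with means up to 1.52, 8.29% rose and 16.9% fell. The classes between them lay in order, with 12.9% and then 21.4% of genes rising, and 16.4% and then 15.1% falling. Changes of at least 1 followed the same order for rises, from 0.785% of the lowest class to 5.34% of the highest. For falls of at least 1 there was no such order, with 2.9%, 2.25%, 2.43% and 2.88% from the lowest class to the highest.

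**Figure D2:**
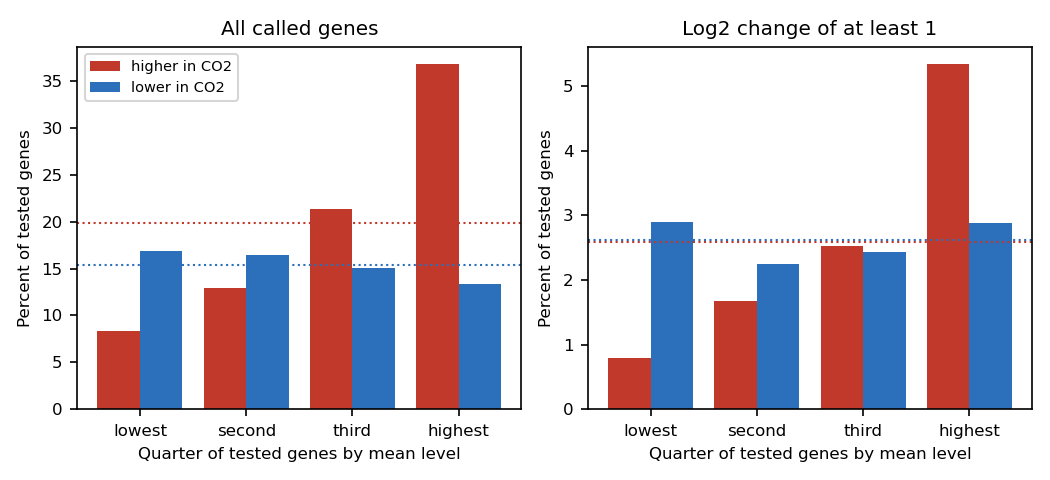
Bars give the percent of tested genes in each of the 4 level classes that were higher (red) or lower (blue) in CO2 than in control, for all called genes on the left and for log2 changes of at least 1 on the right; dotted lines are the percents over all tested genes. The share that rose climbs from 8.29% in the lowest class to 36.8% in the highest, and the share that fell stays between 13.3% and 16.9%.

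The median log2 change was 0.16 in the highest class and -0.0631 in the lowest, against 0.00955 over all tested genes. The means that define the classes include the CO2 libraries. Summed FPKM was 715016, 739056 and 724726 in the CO2 libraries, against 643081, 675268 and 649681 in control. All 3 CO2 sums lay above all 3 control sums, a difference of 70256 (exact permutation test, two-sided p = 0.1, the smallest that 3 against 3 allows). The other 18 libraries ran from 616333 to 721526, so CO2 replicate 1 lay within their range. Summed over genes, the difference between the group means was 126000 FPKM for those that rose, -55700 FPKM for those that fell and 493 FPKM for the 29348 tested genes that were not called. After each library was divided by its median-ratio factor (1.05 to 1.057 in these 6 libraries), 8739 genes rose (19.3%) and 6941 fell (15.3%). In whole leaves, fewer cells of a type and less RNA per cell cannot be told apart.

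The difference in summed FPKM was spread over many genes. The 20 largest rises in mean FPKM together came to 17100 FPKM, and the 20 largest falls to -9740. TraesCS4D02G135000 stood at 4850, 5120 and 5090 FPKM in the CO2 libraries, against 2700, 2660 and 2550 in control. It was the most abundant gene of the CO2 group and ranked 2 in control, with a log2 change of 0.93 (SE 0.16, adjusted p = 0.00016 by limma with Benjamini-Hochberg correction). TraesCS4A02G177500 stood at 4710, 4970 and 5020 FPKM in CO2, against 2630, 2570 and 2490 in control (log2 change 0.93, SE 0.084, adjusted p = 7.3e-08 by limma with Benjamini-Hochberg correction). The CO2 libraries of both genes lay above every one of the other 21 libraries of the series. TraesCS4B02G140300, singled out after its values were seen because it ranked 3 in both groups, had means of 4770 FPKM in CO2 and 2570 FPKM in control (log2 change 0.89). The gene that led in control, TraesCS3D02G412300, also singled out afterwards, was not called, at 4120 FPKM in CO2 and 3540 FPKM in control (adjusted p = 0.33 by limma with Benjamini-Hochberg correction).

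The largest losses in FPKM were of genes that the CO2 group held at a small part of their control level. TraesCS3B02G096500 stood at 97.9, 135 and 120 FPKM in CO2, against 1180, 1200 and 1310 in control, a log2 change of -3.39 (SE 0.5, adjusted p = 3.3e-05 by limma with Benjamini-Hochberg correction). TraesCS7B02G259700 stood at 229, 285 and 269 FPKM in CO2, against 1090, 1140 and 1130 in control (log2 change -2.11, SE 0.57, adjusted p = 0.0073 by limma with Benjamini-Hochberg correction). No library of either gene overlapped between the groups. TraesCS3B02G096500 stayed at 668 to 2560 FPKM under temperature and 886 to 1020 under drought, and its CO2 minus temperature difference was -3.45 on the log2 scale (adjusted p = 4.6e-05 by limma with Benjamini-Hochberg correction). TraesCS7B02G259700 ranged from 356 to 1200 FPKM under temperature, and its CO2 minus temperature difference did not pass (log2 difference -1.32, adjusted p = 0.093 by limma with Benjamini-Hochberg correction). Under drought TraesCS7B02G259700 stood at 1030 to 1410 FPKM, and CO2 minus drought was called for both genes, at -2.16 for TraesCS7B02G259700 and -3.03 for TraesCS3B02G096500 (adjusted p = 0.0064 and adjusted p = 0.00012 by limma with Benjamini-Hochberg correction). In temperature+drought, where no CO2 was added, TraesCS7B02G259700 was also low, at 393, 67.6 and 174 FPKM. TraesCS3B02G096500 stood at 464 to 1440 FPKM there. The difference between the genes was not tested.

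Among the 20 most abundant genes of control, 6 rose, 1 fell and 13 were not called, and 16 were also among the 20 most abundant of the CO2 group. Among the 100 most abundant of control the calls were 25 rises, 27 falls and 48 genes not called, with 75 shared with the CO2 group's first 100. Over all tested genes 19.9% rose and 15.4% fell, and in the highest level class 36.8% and 13.3%. The median log2 change of the 100 genes was 0.0149, so the excess of rises in that class was not seen among them. They were picked by their level in control, a choice that itself favours falls. The 20 genes with the highest mean over the 8 groups held 6.58%, 6.95% and 6.85% of summed FPKM in the CO2 libraries, against 5.69%, 5.93% and 5.44% in control. The 3 CO2 shares lay above the 3 control shares (exact permutation test, two-sided p = 0.1) and above the 5.01% to 6.25% of the other 18 libraries.

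The largest rises on the log2(FPKM + 1) scale were of 2 genes that averaged 1.16 and 2.64 FPKM in control. This scale understates rises from near 0 FPKM, so other genes can have a larger fold change. TraesCS6D02G026500 stood at 91.7, 97.2 and 91.5 FPKM in CO2, against 1.15, 1.17 and 1.18 in control (log2 change 5.45, SE 0.44, adjusted p = 1.7e-08 by limma with Benjamini-Hochberg correction). It was also high where CO2 was combined with 1 other treatment, at 77.7 to 171 FPKM in CO2+drought and 30.5 to 36.5 in CO2+temperature. Without CO2 it stayed at or under 3.33 FPKM in drought and at or under 0.441 in temperature, but stood at 95.4 to 108 FPKM in temperature+drought, where no CO2 was added. The next identifier on that chromosome, TraesCS6D02G026600, stood at 17.1, 18.7 and 17.1 FPKM in CO2, against 0.0245, 0.0764 and 0.026 in control. It too was high without added CO2 in temperature+drought, at 59.9 to 61.9 FPKM. TraesCS5A02G219300 stood at 44.2, 91.3 and 65.7 FPKM in CO2, against 3.61, 2.58 and 1.74 in control (log2 change 4.19, SE 0.43, adjusted p = 3.9e-07 by limma with Benjamini-Hochberg correction). Its level was 18 to 57.6 FPKM in CO2+drought but 3.02 to 3.79 in CO2+temperature, so the libraries of CO2 and CO2+temperature did not overlap. In CO2+temperature+drought it stood at 0.918 to 1.12 FPKM.

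**Figure D3:**
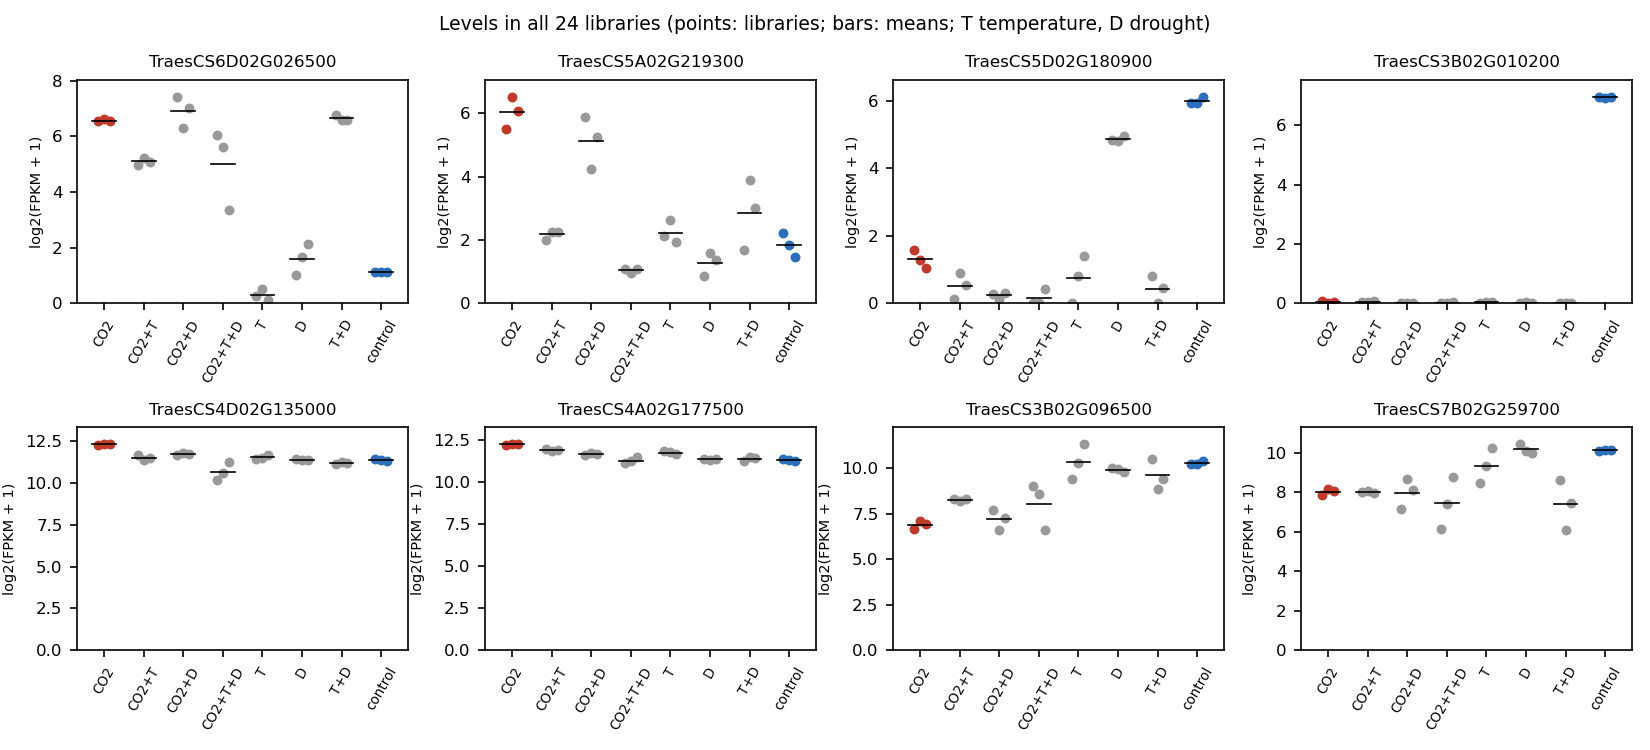
Points are the log2(FPKM + 1) of each of the 24 libraries in 8 groups, bars are group means, CO2 libraries are red and control libraries blue. The upper row shows the 2 largest rises and 2 largest falls on the log2(FPKM + 1) scale. The lower row shows the 2 largest rises and 2 largest falls in FPKM. TraesCS3B02G010200 is high in the control libraries alone.

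The largest falls on the log2(FPKM + 1) scale were of genes that were lower in other treated groups as well. TraesCS3B02G010200 was at 0.0449, 0 and 0.0366 FPKM in CO2, against 124, 119 and 122 in control (log2 change -6.90, SE 0.061, adjusted p = 1.9e-24 by limma with Benjamini-Hochberg correction). Its SE pools the spread of all groups, and outside control the gene was near 0 FPKM, where this scale has little spread. Fitted to the CO2 and control libraries alone, the adjusted p was 1.1e-09 by limma with Benjamini-Hochberg correction. No library of the other 6 groups was above 0.0484 FPKM, so the gene sets the control plants apart from all others. Its difference between CO2 and temperature was not called (log2 difference 0.01, adjusted p = 0.91 by limma with Benjamini-Hochberg correction). TraesCS5D02G180900 was at 2.01, 1.44 and 1.07 FPKM in CO2, against 59.9, 60.1 and 68.7 in control (log2 change -4.69, SE 0.26, adjusted p = 6e-11 by limma with Benjamini-Hochberg correction). It was at 0 to 1.61 FPKM under temperature and at 27.1 to 30.1 under drought. In all, 76 of the 1187 genes that fell by at least 1 were at least 4-fold higher in each control library than in each of the 21 treated libraries. Values were rescaled for this, and each control library had to reach 1 FPKM. The converse, at least 4-fold lower in each control library than in each treated one, was met by 0 genes. It required 1 FPKM in all 21 treated libraries, a stricter floor, so the counts of 76 and 0 are not like for like. The 76 genes enter every comparison with these control plants, and 1111 of the larger falls remain without them. Of the 1187 falls, 513 were also called lower in CO2 than in temperature (43.2%, beside 12% of all tested genes), and 61 higher. Against drought 1004 were called lower (84.6%, beside 16.3%) and 5 higher. Of the 1171 rises of at least 1, 969 were called higher than in temperature (82.7%, beside 15.9%) and 1066 than in drought (91%, beside 18%). These contrasts share the CO2 libraries that chose the genes.

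Genes listed at 0 FPKM were found on 1 side. A gene at 0 in all 3 CO2 libraries and at 1 FPKM or more in all 3 control libraries occurred 46 times, and 39 of these were among the control-only genes just described. The converse, 0 in control and at least 1 FPKM in all 3 CO2 libraries, occurred 0 times. Temperature and drought gave the same one-sided counts against these control libraries, at 43 and 0 genes each. Of the 7 losses outside the control-only set, TraesCS4B02G202900, singled out after its values were seen, averaged 0 FPKM in CO2, 3.63 in temperature and 1.3 in control. TraesCS7B02G084000, singled out in the same way, averaged 0 FPKM in CO2, 2.59 in drought and 2.03 in control. The other 5 averaged 0 to 0.0286 FPKM in temperature and 0 to 0.076 in drought. Such a listing may also stand for a level that could not be estimated.

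The change was spread over the genome. Of tested genes on the A, B and D subgenomes, 20.1%, 19.4% and 20% rose and 15.5%, 15.4% and 15.5% fell, beside 19.9% and 15.4% over all tested genes. Among the 21 chromosomes the share that rose ran from 17.6% on 7B to 22.5% on 6B, and the share that fell from 14.4% on 1B, 1D and 2D to 17% on 4D. Chromosome group 6 had the highest share of rises of the 7 groups (21.6%). Subgenome A held 34.3% of summed FPKM in each CO2 library, against 33.8% in each control library, and subgenome B held 31.1% to 31.2% in CO2, against 31.4% to 31.5% in control. In the other 18 libraries subgenome A held 33.6% to 34.4% and subgenome B 30.8% to 31.5%, ranges that take in the CO2 values. CO2 and control libraries did not overlap in either share (exact permutation test, two-sided p = 0.1 for each). Chromosome group 4, which holds the 3 most abundant genes of the CO2 group, carried 14.1%, 14% and 14.2% of summed FPKM in CO2, against 13.4%, 13.5% and 13.6% in control.

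Identifiers are numbered along each chromosome, so their order stands in for position. Each chromosome was divided into 10 parts with equal numbers of identifiers. In its first and last parts 3.16% of tested genes rose by at least 1 and 3.59% fell by at least 1. In the 2 middle parts the shares were 2.24% and 2.05%. Falls by at least 1 were most frequent in the last part (3.85%) and least in part 5 (1.67%). These shares are descriptions, with no test. Large changes also lay beside one another. Of the genes that rose by at least 1, 8.8% were followed by a tested gene that did the same, beside 2.58% of all tested genes. Of those that fell by at least 1, 10.1% were followed by another such fall, beside 2.62%. Neighbours can be tandem copies of 1 gene, between which fragments may be shared.

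In 8 places at least 4 tested genes in succession changed by at least 1 in the same direction, 1 upward and 7 downward. The run that rose was on chromosome 5D and held 5 genes, from TraesCS5D02G227300 to TraesCS5D02G227700, with log2 changes between 2.22 and 3.55. Its first gene stood at 1.73, 6.21 and 4.45 FPKM in CO2, against 0.0699, 0 and 0 in control (log2 change 2.22, SE 0.31, adjusted p = 1.5e-05 by limma with Benjamini-Hochberg correction). The last gene of the run averaged 106 FPKM in CO2, 19.2 in temperature, 7.29 in drought and 20.4 in control. Each of the 5 genes had its highest mean of these 4 groups in CO2. TraesCS5D02G227500, inside the run, stood at 12.8, 30.2 and 19.6 FPKM in CO2, against 1.24, 1.13 and 0.165 in control. CO2 replicate 1 was the lowest and replicate 2 the highest for both genes, as for TraesCS5A02G219300.

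The longest run of falls was on chromosome 2B, with 5 genes from TraesCS2B02G445100 to TraesCS2B02G445600 and log2 changes between -2.67 and -1.96. Its first gene stood at 5.6, 5.94 and 5.97 FPKM in CO2, against 21.7, 22.2 and 35.3 in control (log2 change -1.97, SE 0.36, adjusted p = 0.00033 by limma with Benjamini-Hochberg correction). All 5 genes had lower means in CO2 than in temperature and in drought too. TraesCS2B02G445300, for example, averaged 18.7 FPKM in CO2, 50 in temperature, 80 in drought and 77.8 in control. On chromosome 5B a run of 4 falling genes began at TraesCS5B02G462800, which stood at 0, 0.165 and 0.0251 FPKM in CO2, against 0.858, 1.36 and 2.05 in control (log2 change -1.16, adjusted p = 0.0013 by limma with Benjamini-Hochberg correction). That gene was also low in temperature, with a mean of 0.23 FPKM. Its CO2 minus temperature difference was not called (log2 difference -0.18, adjusted p = 0.65 by limma with Benjamini-Hochberg correction). Within the run TraesCS5B02G463000 averaged 1.02 FPKM in CO2, 13.8 in temperature, 40.4 in drought and 34.1 in control. The other 5 runs of falls lay on 2D, 6B, 2A, 1A and again 2B. The 4 genes of the 1A run averaged 0.526 to 1.09 FPKM in CO2 and 0.7 to 1.41 in temperature, against 2.83 to 5.4 in control. TraesCS2D02G107600 averaged 1.16 in CO2, 2.15 in temperature and 25.6 in control. In the 2A run TraesCS2A02G027700 was low in temperature (0.257, against 5.88 in control), but TraesCS2A02G027800 was not (10.1, against 14.4). The 4 genes of the 6B run were also low in temperature and drought, with means of 0.0127 to 2.3 FPKM in CO2 and 0 to 4.43 in those groups, against 2.2 to 9.64 in control.

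**Figure D4:**
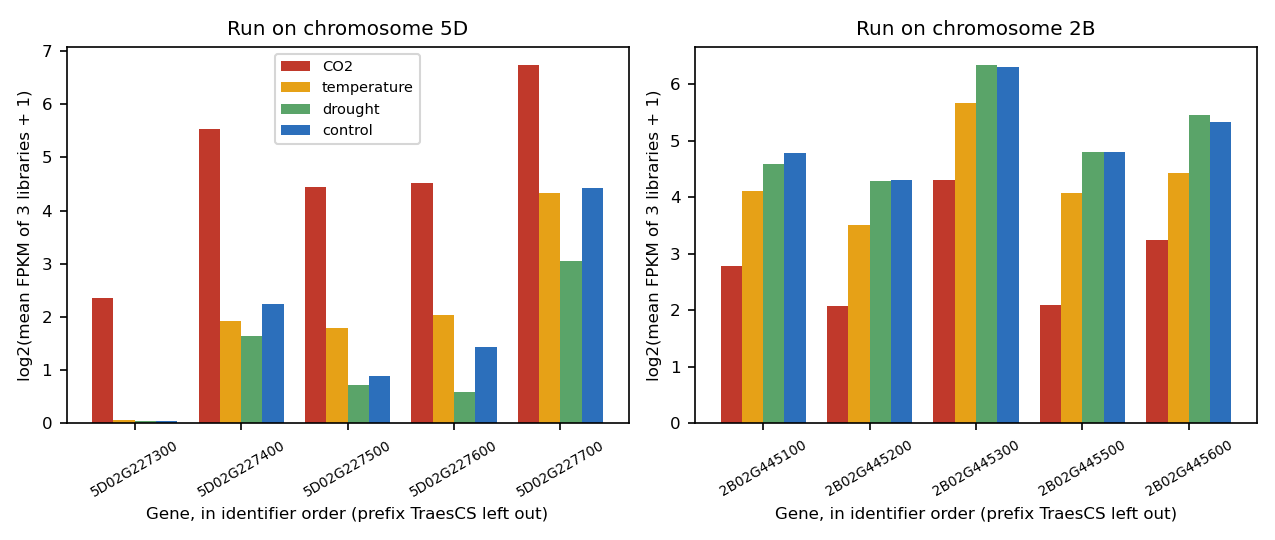
Bars are log2 of the mean FPKM of 3 libraries plus 1, for the 5 genes of the rising run on chromosome 5D and the 5 genes of the falling run on chromosome 2B, in CO2, temperature, drought and control. In the 5D run CO2 is the tallest bar for every gene, and in the 2B run it is the shortest.

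Whether the CO2 group differed from the other single treatments was tested directly, without the control libraries. Against temperature alone 12668 genes were called (27.9%), 7218 higher (15.9%) and 5450 lower (12%) in CO2. Against drought alone 15566 were called (34.3%), 8178 higher (18%) and 7388 lower (16.3%). Larger differences were mostly rises against temperature, with 1086 genes higher (2.39%) and 601 lower (1.32%) by at least 1, and mostly falls against drought, with 1010 higher (2.23%) and 1536 lower (3.39%). TraesCS6D02G026500 led the rises in both, by 6.26 and 4.97 on the log2 scale. Second against drought was TraesCS1B02G326900, at 38.1, 78.1 and 60.2 FPKM in CO2, against 0.0943, 1.1 and 1.69 in drought (log2 change 4.97, adjusted p = 6.6e-06 by limma with Benjamini-Hochberg correction). Control replicates of that gene were far apart, at 15.2, 14.1 and 0.663 FPKM.

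The largest falls against temperature were of genes that heated replicates held at very different levels. TraesCS6B02G412100 stood at 0.588, 0.313 and 0.314 FPKM in CO2, against 7.45, 152 and 445 in temperature and 16, 16.4 and 11 in control (CO2 minus temperature -5.89, SE 0.81, adjusted p = 2.5e-05 by limma with Benjamini-Hochberg correction). TraesCS6A02G374400 stood at 0.663, 0.228 and 0.0519 FPKM in CO2, against 5.27, 108 and 322 in temperature (log2 change -5.55). Both reached 85.5 FPKM or more in every CO2+temperature library. The largest falls against drought were steadier. TraesCS3A02G517100 stood at 1.1, 1.06 and 1.42 FPKM in CO2, against 76.5, 69.4 and 63.2 in drought (log2 change -5.01, adjusted p = 7.6e-08 by limma with Benjamini-Hochberg correction). TraesCS5B02G407200 stood at 2.59, 1.72 and 2.47 FPKM in CO2, against 88, 85.7 and 85.4 in drought and 82.7, 77.2 and 65.5 in control (CO2 minus drought -4.75, SE 0.32, adjusted p = 1.9e-09 by limma with Benjamini-Hochberg correction).

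Set against the mean of control, drought and temperature together, 17701 genes were called (39%), 9616 higher (21.2%) and 8085 lower (17.8%) in CO2. A gene can be called here when CO2 differs from only 1 of the 3 groups. TraesCS3B02G010200 was called (-2.29), although CO2 minus temperature and CO2 minus drought were not (adjusted p = 0.91 and adjusted p = 0.82 by limma with Benjamini-Hochberg correction). By at least 1, 824 were higher (1.82%) and 828 lower (1.83%). TraesCS6D02G026500 (log2 change 5.56) and TraesCS5A02G219300 (4.25) led the rises, and TraesCS5B02G407200 (-4.47) and TraesCS3A02G517100 (-3.98) the falls. Across the whole series, on rescaled values, all 3 CO2 libraries lay above all 21 others in 1197 tested genes (2.64%) and below all others in 537 (1.18%). For the other single treatments these counts were 320 and 370 in temperature and 707 and 286 in drought, and for control 551 and 562. They were highest in temperature+drought, at 2256 and 1426. Of the 1171 genes that rose by at least 1, 199 had all CO2 libraries above all 21 others, and of the 1187 that fell by at least 1, 38 had them below all others. CO2 had the highest mean of the 8 groups for 455 of the risen genes (38.9%, beside 12.2% of all tested genes) and CO2+drought for 350 (29.9%, beside 15.2%). The lowest mean of the fallen genes was in CO2+drought for 247 (20.8%, beside 17.1% of all tested genes) and in temperature+drought for 245 (20.6%, beside 17.4%). It was in CO2 for 237 (20%, beside 11.5%). Since these genes were chosen by their level in CO2 against control, the shares for CO2 follow in part from that choice.

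Plants that also had drought or heat gave other estimates of the change with CO2 for the same genes, from groups whose means do not enter CO2 minus control. All contrasts share 1 estimate of each gene's spread, from all 24 libraries, so their calls are not independent. Rescaled values are used for CO2+drought, whose columns lay on a lower scale with factors of 0.887 to 0.8924, against 1.05 to 1.057 in CO2 and control. With drought, 988 of the 1171 genes that had risen by at least 1 were called higher when CO2 was added (84.4%, beside 20.8% of all tested genes), and 5 were called lower. As deposited, CO2 added to drought called 5740 genes higher (12.7%) and 16544 lower (36.5%), so the split between rises and falls there depends on the scale. Of the 1187 that had fallen by at least 1, 869 were called lower (73.2%, beside 19.8%) and 14 higher. With temperature, 432 of the risen genes were called higher (36.9%, beside 7.19%) and 10 lower, and 357 of the fallen genes were called lower (30.1%, beside 6.51%) and 38 higher. With library quality weights the calls over all tested genes for CO2 added to temperature were 9207 higher and 9008 lower, against 3263 and 2953 without weights, and the counts of the chosen genes were not recomputed with them. The median log2 change of the risen genes was 1.1 with drought and 0.36 with temperature, against 1.23 for CO2 alone, the contrast that chose them. For the fallen genes it was -1.25 with drought and -0.30 with temperature, against -1.37 for CO2 alone. The medians for CO2 alone describe the choice of genes and were not compared with the others by a test.

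**Figure D5:**
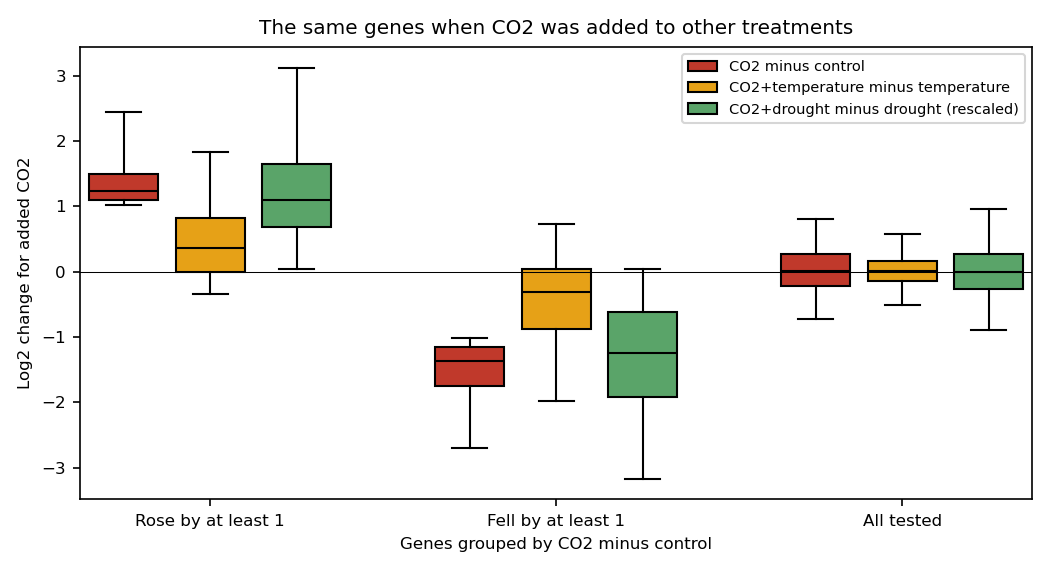
Boxes span 25% to 75% of genes with the median as a line, and whiskers reach 5% and 95%, for the log2 change when CO2 was added to untreated plants (red), to temperature (yellow) and to drought (green, rescaled). Genes that rose or fell by at least 1 under CO2 alone have medians of 1.1 and -1.25 with drought, and of 0.36 and -0.30 with temperature.

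The differences between these effects were tested as interactions over all tested genes. The CO2 effect under temperature differed from the CO2 effect alone in 7888 genes (17.4%), with 3061 positive (6.75%) and 4827 negative (10.6%). TraesCS5D02G227500, of the 5D run, had one of the 2 most negative values (-4.31, SE 0.61, adjusted p = 8.5e-05 by limma with Benjamini-Hochberg correction). It stood at 0.203, 1.59 and 1.68 FPKM in CO2+temperature, against 3.07, 1.95 and 2.38 in temperature. TraesCS5A02G219300 followed with -4.25 (SE 0.6, adjusted p = 8.5e-05 by limma with Benjamini-Hochberg correction). TraesCS5A02G257700 ran the other way. It did not pass under CO2 alone (0.196, 0.0364 and 0.133 FPKM in CO2, against 0, 0.0329 and 0.0671 in control) but stood at 84.8, 160 and 123 FPKM in CO2+temperature, against 0.161, 0.324 and 0.671 in temperature (interaction 6.33, SE 0.44, adjusted p = 5.5e-09 by limma with Benjamini-Hochberg correction). The control-only gene TraesCS3B02G010200 had the most positive value, 6.93, and was high in control libraries alone.

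The CO2 effect under drought differed from the CO2 effect alone in 10515 genes as deposited (23.2%), 1362 positive (3%) and 9153 negative (20.2%), and in 4948 rescaled (10.9%), 2129 positive (4.69%) and 2819 negative (6.21%). The share of positive values was 13% as deposited and 43% rescaled. On rescaled values TraesCS5D02G401300 had the most negative value (-3.90, SE 0.74, adjusted p = 0.0021 by limma with Benjamini-Hochberg correction). It stood at 689, 629 and 644 FPKM in CO2, against 75, 92.8 and 122 in control, and at 123, 90.1 and 108 in CO2+drought, against 185, 308 and 371 in drought. TraesCS1A02G290200 (-3.69, SE 0.24, adjusted p = 2.3e-09 by limma with Benjamini-Hochberg correction) was not called under CO2 alone, at 24, 13.8 and 16.3 FPKM, against 13.3, 17.4 and 18.4 in control, and stood at 0.72, 0.342 and 0.699 in CO2+drought, against 20.3, 20.5 and 18.5 in drought. TraesCS5D02G042300 was at 0.272, 0.152 and 1.66 FPKM in CO2, listed at 0 in all control and drought libraries, and at 273, 13.3 and 128 in CO2+drought (interaction 5.85, SE 1.3, adjusted p = 0.0077 by limma with Benjamini-Hochberg correction). It was also high without added CO2 in temperature+drought, at 236, 64.3 and 102 FPKM. TraesCS3A02G062200, among the 2 most negative as deposited (-3.84) and at -3.64 rescaled, fell under CO2 alone to 42, 35.1 and 41.9 FPKM, against 73.9, 73.2 and 100 in control. In CO2+drought it stood at 1.96, 3.72 and 3.1 FPKM, against 91.1, 119 and 129 in drought.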

How the data were processed

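Poly-A RNA from 24 wheat leaf libraries was sequenced as paired ends, per the labels' protocols. The authors deposited FPKM for 105200 identifiers. Per the submitters' processing notes, the tools named are HISAT2, Cuffdiff, DESeq2 and Trim Galore (version 0.4.1), with no step assigned to any. No label or header names the genome build or the way fragments were counted. Fragment counts were not analysed here, so depth is unknown and no counting interval was computed. The most common ratio of low values (under 0.3 FPKM) to control replicate 1 was 1.033 to 1.152 in CO2 and 1.041 to 1.063 in the other controls. It combines depth with any scaling.

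Values were tested as log2(FPKM + 1) with limma 3.58.1 in R 4.3.3, with 1 coefficient per group, a mean-variance trend and 16 residual degrees of freedom. Tests were two-sided, and each contrast had its own Benjamini-Hochberg adjustment over all tested genes. The procedure was tested on simulated data with independent normal noise and 1 SD per gene in all groups. The real groups differed in spread (root mean square SD 0.141 in CO2 to 0.305 in CO2+temperature+drought), so that test does not give the error rate here. Rescaled values were divided by median-ratio factors. Named genes were the 2 largest rises and 2 largest falls of each contrast among called genes with at least 5 FPKM in the higher group and, for contrasts of groups, no overlap, then the 2 by FPKM and the longest runs. The comparison, rules and 8 gene lists were chosen with earlier results of these data known, and the lists held 0 matched genes. Levels of genes with near-identical copies are uncertain, because nothing states how their fragments were divided. No sequence is shown.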

Additional observations from a re-analysis of the deposited data

Results flagged for a closer look

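Effects of CO2 that differed with another treatment, by the test of the difference, were called in 7888 genes with temperature and in 4948 genes, rescaled, with drought. With temperature the named genes were TraesCS3B02G010200 (6.93), TraesCS5A02G257700 (6.33), TraesCS5D02G227500 (-4.31) and TraesCS5A02G219300 (-4.25), as differences between log2 changes. With drought, on rescaled values, they were TraesCS3B02G010200 (6.82), TraesCS5D02G042300 (5.85), TraesCS5D02G401300 (-3.90) and TraesCS1A02G290200 (-3.69). TraesCS3B02G010200 was at 0.0484 FPKM or less in all libraries outside control. Groups of 3 libraries are too small to single out 1 library by its distance from the others.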

How the results depend on the processing

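CO2 minus control called 16011 genes, and between 12670 and 23942 under all alternatives, with more rises than falls in each. Fitted to its own 6 libraries alone, it called 20961 genes, 15589 of them among the 16011. With library quality weights, whose estimate stopped before its tolerance was met, the other counts were 25380 for CO2 minus temperature, 24732 for CO2 minus drought, 26865 for CO2 minus the mean of 3 groups, 19591 for the interaction with temperature, 23133 for that with drought, 18215 for CO2 added to temperature (6216 without weights) and 33608 for CO2 added to drought (22284 without weights); the cause was not tested. Rescaling gave 4948 genes for the interaction with drought, against 10515 as deposited. Runs numbered 152, with 88 upward, when any called change counted, since more genes qualify. In 1 gene the value was listed at 0 in control and at 0.5 FPKM or more in CO2. Leaving out each library in turn gave 12670 to 13734 genes for CO2 minus control, 9701 to 11339 for CO2 minus temperature, 12374 to 13421 for CO2 minus drought, 13356 to 17709 for CO2 minus the mean of 3 groups, 6205 to 8327 for the interaction with temperature and 8046 to 9704 for that with drought. With a replicate block, CO2 minus control called 16093 genes. Same-numbered CO2 and control libraries did not deviate together (r of -0.099, 0.052 and -0.011 across genes). All 481 alternative values of named genes kept their direction and their call. Alternatives chosen after the data were seen were a filter on the 6 libraries alone (15619 genes), removal of the genes high in control alone (1111 larger falls) and leaving out each library from the shares of summed FPKM, which moved none of them by more than the spread between replicates. FPKM gives no depth, so no limit of detection is given.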
